A study of Mus musculus with 6 samples.

Results

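The genes described here are 10 genes through which tissues use metabolites to restrain or shape immune responses. They were chosen by function from the 21720 gene symbols in the table. Ido1, Ido2 and Tdo2 encode the enzymes that open the tryptophan ring, and Kmo and Kynu encode enzymes that act further along the resulting kynurenine pathway. Acod1 encodes the enzyme that makes itaconate. Entpd1 (CD39) and Nt5e (CD73) encode the cell surface enzymes that make adenosine, and Adora2a and Adora2b encode receptors that sense it.

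RNA was sequenced from H22 tumours of BALB/c mice. H22 is a mouse hepatocellular carcinoma line, grown here under the skin of wild-type animals, which the methods of the study give as 6 to 8 weeks old. The control group received the vehicle, 0.5% carboxymethyl cellulose sodium (CMC-Na), and the luteolin group received luteolin, a plant flavonoid, at 200 mg/kg. Both were given in 0.2 mL by gavage each day over 21 days from a tumour volume near 50 mm3 onwards. Each group has 3 libraries of whole tumour, and wherever 3 values are given for a group they stand in the order of replicates 1, 2 and 3. The labels do not say whether the libraries of a group came from separate animals, so the p values measure the spread between these libraries, which may be technical in part. The library totals were 69391357, 66256017 and 66655030 counts for the controls and 61081637, 80442954 and 63965501 counts for the luteolin group.

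Kynurenine, itaconate and adenosine are small molecules that activated or stressed cells accumulate or release, and each can dampen inflammation. The dioxygenase encoded by Ido1 is induced by interferon in myeloid and tumour cells, depletes tryptophan and opens the route to kynurenine, a ligand of the aryl hydrocarbon receptor. Activated macrophages divert cis-aconitate from the citrate cycle into itaconate, which inhibits succinate dehydrogenase. In tumours, ATP outside cells is trimmed by CD39 to AMP and then by CD73 to adenosine, which acts on T cells and myeloid cells through cyclic AMP.

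The libraries did not all hold the same tissue. Of 11 keratinocyte markers, 7 (Krt5, Krt14, Krt1, Dsg1a, Dsg3, Lor and Flg) had 0 counts in all control libraries. The summed level of the list, in CPM (counts scaled to a common library total), was 18.5, 13.9 and 16.4 in the controls and 416, 9358 and 20.3 in the luteolin group. Krt14, the most abundant of them by the mean over all 6 libraries, as for every list here, had 9606, 203754 and 277 counts in the luteolin libraries. Skin transcripts were thus abundant in luteolin replicate 2, fewer in replicate 1 and fewest in replicate 3. Replicate 3 was not free of them, with 303 Krt5, 277 Krt14, 55 Krt1 and 20 Dsg1a counts where every control had 0. Its sum came near the controls because Ivl, a further marker chosen after its values were seen, was at 13.7, 9.31 and 12.4 CPM in the controls and 4.40 CPM in that library. The part of skin transcripts in the results was not tested. Values for luteolin replicate 3 alone against the 3 controls, the library with the fewest, are given beside the main ones for the 9 of the 10 genes that were tested, and in that fit the spread comes from the controls, with the lone library assumed to vary as they do. A call gained or lost there therefore also reflects the smaller number of libraries. Afp, a marker of hepatoma cells and the most abundant of the liver list over all 6 libraries, was present in every library, at 59.4, 66.7 and 43.4 CPM in the controls and 32.7, 41.8 and 38.8 CPM in the luteolin group. It was the exception in its list, where 7 of the 8 tested markers had a positive log2 difference, with a median of 1.57, and 1 passed the threshold of the study described below. Alb (albumin), chosen after its values were seen, was at 3.06, 60.3 and 0.868 CPM in the controls and 133, 26.0 and 31.9 CPM in the luteolin group, which overlapped. Hnf4a, a transcription factor that defines liver cells and was chosen after its values were seen, was at or near 0, with 0, 12 and 0 counts in the controls and 20, 8 and 0 counts in the luteolin group.

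Of the 10 genes, 9 were tested, and Tdo2 did not pass the filter on low counts. The threshold of the study asks for an unadjusted p under 0.05 and a change of more than 2-fold, and it is applied here to p values from edgeR unless DESeq2, the tool of the study, is named. By it, 4 of the 9 tested genes were higher in the luteolin group (Acod1, Nt5e, Ido1 and Kynu), where 11.3% of all 14963 genes tested were higher, and 0 were lower, where 1.52% were lower. Ido1 passed the filter on low counts through the luteolin libraries, and under a filter of at least 10 counts in every library it was not tested and the other 3 were called. DESeq2 placed 5 higher, with Adora2a added, where 11.5% of its 17478 genes tested were higher, and 0 lower, where 1.61% were. At a Benjamini-Hochberg (BH) adjusted p under 0.05 from the edgeR quasi-likelihood fit, Acod1 and Nt5e were higher, where 1.34% of all genes were, and 0 were lower, where 0.187% were. At an unadjusted p under 0.05 with no limit on the fold, 5 of the genes were higher in edgeR, where 2098 of the 14963 genes tested were, and 0 were lower, where 6.44% were. By the same rule 6 were higher in DESeq2, where 14.4% of its genes were, and 0 were lower, where 6.85% were. All 3 luteolin libraries lay above all 3 controls for 6 of the genes (15.9% of all genes) and below them for Ido2 (12.8% of all genes). The median log2 difference was 1.39 over the 9 tested genes and -0.0073 over all genes tested. With luteolin replicate 3 alone the log2 fold changes of Acod1, Nt5e, Ido1 and Kynu were 3.29, 1.31, 1.84 and 1.35. In bulk tumour RNA, more cells of a type and more RNA per cell cannot be told apart.

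**Figure D1:**
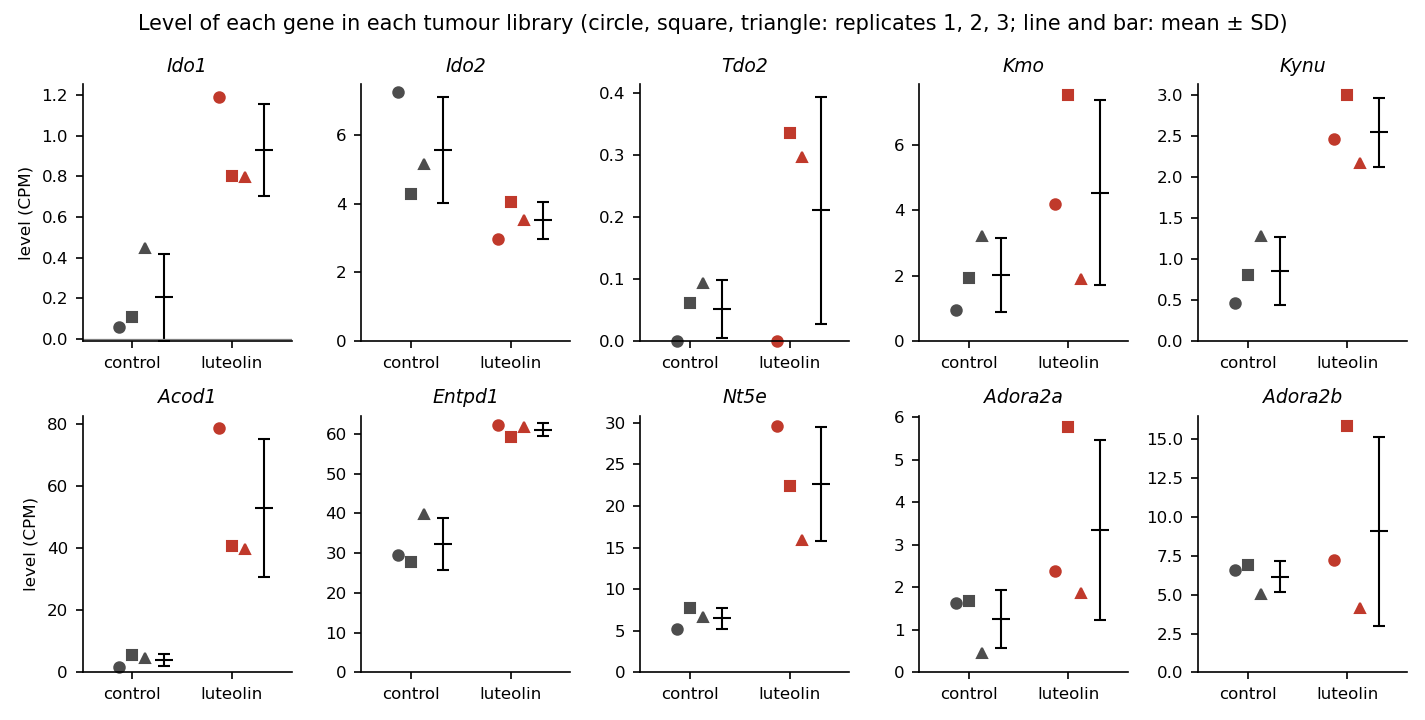
Level of each of the 10 genes in CPM (vertical axes, linear, 1 scale per gene) in each library of the control and luteolin groups, with replicates 1 to 3 as circle, square and triangle and the mean with its SD (n = 3) as bars. Acod1, Nt5e, Entpd1, Kynu, Ido1 and Adora2a are above every control library in all 3 luteolin libraries, and Ido2 is below.

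**Figure D2:**
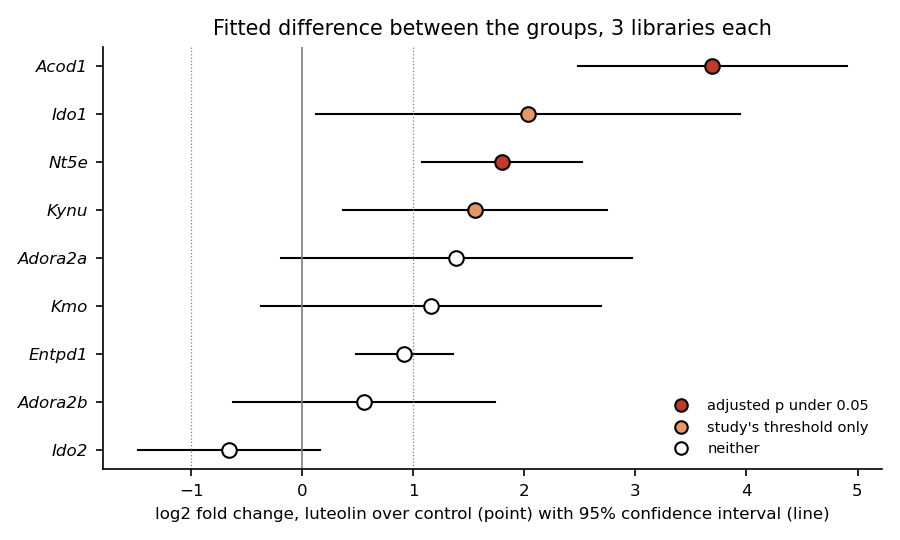
Log2 fold change of luteolin against control for the 9 tested genes, with the 95% confidence interval of the edgeR quasi-likelihood fit, coloured by which threshold the gene passed. The intervals of Acod1, Nt5e, Entpd1, Kynu and Ido1 lie above 0, and those of Kmo, Adora2a, Adora2b and Ido2 include 0.

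Acod1, the itaconate synthase of activated macrophages, had the largest log2 fold change of the 9 tested genes. Its level was 1.83, 5.73 and 4.68 CPM in the controls and 78.9, 40.8 and 39.7 CPM in the luteolin group. Every luteolin library was far above every control, and luteolin replicate 1 was the highest. The group means were 4.08 ± 2.02 CPM and 53.1 ± 22.3 CPM (SD, n = 3 each), a 13.01-fold difference. Its log2 fold change of 3.69 (SE 0.51, 95% confidence interval 2.48 to 4.90) had a BH-adjusted p = 0.0332 by edgeR's quasi-likelihood fit and ranked 78 among the 14963 genes by p. With luteolin replicate 3 alone the log2 fold change was 3.29 (edgeR, BH-adjusted p = 0.159). The adjusted p was also above 0.05 when any control or luteolin replicate 1 was left out, at 0.124 to 0.207 (edgeR, BH). RefSeq lists the noncoding gene Gm41235 across Acod1, and whether reads were counted by strand is not given in the sources used here.

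The promoters of Acod1, Nt5e and Adora2b are shown because these genes run from the largest rise to a difference within the spread. Each is the 250 bases before the gene's RefSeq start on GRCm38.p6, on the strand of the gene, with motif matches in capitals. GENCODE M21 starts Nt5e at 88327197 and Acod1 at 103046977. In that annotation the Nt5e window lies within the gene, and the end of the Acod1 window reaches into it. RefSeq promoters were found for 6 of the 10 genes (Tdo2, Kmo, Acod1, Entpd1, Nt5e and Adora2b).
Acod1, chr14:103046762-103047011, + strand: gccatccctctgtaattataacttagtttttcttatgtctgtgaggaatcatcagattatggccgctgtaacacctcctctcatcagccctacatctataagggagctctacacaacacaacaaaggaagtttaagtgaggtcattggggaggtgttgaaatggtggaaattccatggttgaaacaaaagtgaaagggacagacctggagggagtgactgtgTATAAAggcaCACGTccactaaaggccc
Nt5e, chr9:88327359-88327608, + strand: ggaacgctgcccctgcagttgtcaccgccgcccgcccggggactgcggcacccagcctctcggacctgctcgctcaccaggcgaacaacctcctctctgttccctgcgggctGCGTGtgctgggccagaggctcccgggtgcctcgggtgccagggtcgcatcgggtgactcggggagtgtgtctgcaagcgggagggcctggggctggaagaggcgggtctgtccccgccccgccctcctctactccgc
Adora2b, chr11:62248734-62248983, + strand: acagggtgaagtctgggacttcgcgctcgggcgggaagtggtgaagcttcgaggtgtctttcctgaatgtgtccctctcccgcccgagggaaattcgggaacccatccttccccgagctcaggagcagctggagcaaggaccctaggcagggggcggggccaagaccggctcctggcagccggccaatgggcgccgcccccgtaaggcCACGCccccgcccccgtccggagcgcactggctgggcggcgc
The Acod1 promoter held the TATA box letters TATAAA 28 bases before the start and CACGT, the hypoxia response core ACGTG on the other strand, 18 bases before it. TATAAA occurred in 12.4% and ACGTG in 16.6% of 32851 mouse promoters of this length, counting both strands. The Nt5e and Adora2b windows held no TATAAA. Each held 1 core of the aryl hydrocarbon receptor element (GCGTG, in 28.2% of promoters), 138 bases before the start of Nt5e and, on the other strand as CACGC, 42 bases before that of Adora2b. GC content was 44.4% in the Acod1 window, 72% in that of Nt5e and 69.6% in that of Adora2b. Also searched on both strands were the interferon motifs TTCNNNGAA (in 7.02% of promoters) and ISRE (2.98%), the NF-kB motif GGGNNTTCC (4.98%), the cyclic AMP element TGACGTCA (1.55%) and the AP-1 motif TGANTCA (6.75%), whose letters were in 0 of the windows of the 6 genes. A match describes letters in the window, not a site shown to be used.

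Around itaconate, 29 genes of the citrate cycle and of itaconate's known targets were tested, and 1 was higher and 0 lower at the threshold of the study, with 0 at a BH-adjusted p under 0.05 in edgeR. The shares of all genes tested at the threshold of the study were 11.3% higher and 1.52% lower. At an unadjusted p under 0.05 in edgeR, 2 of the 29 were higher and 4 lower. By that rule 2098 of all 14963 genes tested were higher, and 6.44% were lower. Atf3, a stress-induced transcription factor, rose from 20.2 ± 2.62 to 41.9 ± 5.34 CPM (SD, n = 3 each), by 1.05 on the log2 scale (edgeR, BH-adjusted p = 0.0505). Sdha, the catalytic subunit of the succinate dehydrogenase that itaconate inhibits, was at 402, 405 and 421 CPM in the controls and 295, 256 and 307 CPM in the luteolin group. All luteolin values were below all controls, but the log2 difference of -0.52 was under a 2-fold change (BH-adjusted p = 0.106 in edgeR and 0.0167 in DESeq2). Sdhd, another subunit of that complex, had a log2 difference of -0.38, and Nfkbiz, which encodes the itaconate-sensitive NF-kB cofactor, had 0.67. Both had an unadjusted p under 0.05 in edgeR and DESeq2. Neither passed the threshold of the study or a BH-adjusted p under 0.05 in either tool. Cs, citrate synthase and the most abundant gene of the list over all 6 libraries, differed by -0.043. The list's median was -0.20 on the log2 scale, and 24 of the 29 differences were negative, where 7580 of all 14963 were. Oxgr1, which encodes a receptor for oxoglutarate and itaconate, had 0 counts in all libraries, and Sucnr1, the succinate receptor, had 0, 0 and 0 counts in the controls and 4, 12 and 0 in the luteolin group. Both receptors were chosen after their values were seen.

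Nt5e, the step that releases adenosine from AMP, was higher in the luteolin group. Its level was 5.18, 7.71 and 6.61 CPM in the controls and 29.6, 22.4 and 16.0 CPM in the luteolin group, with no overlap. The means were 6.50 ± 1.27 and 22.7 ± 6.82 CPM (SD, n = 3 each), a 3.49-fold difference. Its log2 fold change of 1.80 (SE 0.30, 95% confidence interval 1.08 to 2.52) had a BH-adjusted p = 0.0469 by edgeR's quasi-likelihood fit. That adjusted p lay close to 0.05 and was above it when any control, luteolin replicate 1 or luteolin replicate 3 was left out (edgeR, BH-adjusted p from 0.0506 to 0.217). With luteolin replicate 3 alone the log2 fold change was 1.31 (edgeR, BH-adjusted p = 0.284).

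Entpd1, which trims ATP and ADP to AMP, was at 29.4, 27.8 and 39.8 CPM in the controls and 62.1, 59.3 and 61.8 CPM in the luteolin group. The luteolin libraries were close together and all above the controls. The means of 32.3 ± 6.54 and 61.1 ± 1.56 CPM (SD, n = 3 each) differed 1.89-fold, and the log2 difference of 0.92 (SE 0.18, 95% confidence interval 0.48 to 1.35) stayed under 2-fold (BH-adjusted p = 0.0661 in edgeR and 0.00127 in DESeq2). Without control replicate 3 it was 1.09 and passed the threshold of the study. With luteolin replicate 3 alone it was 0.95. Pseudogenes and noncoding genes lie within Entpd1 in GENCODE and RefSeq, and reads they share with it could not be separated here.

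The adenosine receptors passed neither threshold in edgeR, and Adora2a passed that of the study in DESeq2. Adora2a, through which adenosine restrains T cells, was at 1.63, 1.68 and 0.465 CPM in the controls and 2.38, 5.77 and 1.88 CPM in the luteolin group. The groups did not overlap, and luteolin replicate 2 was well above the other luteolin libraries. The log2 difference was 1.39 (SE 0.67, 95% confidence interval -0.19 to 2.97; edgeR, BH-adjusted p = 0.303), and DESeq2 gave the same 1.39 with a p of 0.0437 before and a BH-adjusted p = 0.198 after adjustment. The difference was 0.76 without luteolin replicate 2 and 0.57 with luteolin replicate 3 alone. Adora2b, a receptor that needs more adenosine than Adora2a does, was at 6.55, 6.90 and 5.02 CPM in the controls and 7.23, 15.8 and 4.15 CPM in the luteolin group. Its groups overlapped, with luteolin replicate 2 again the highest. The log2 difference was 0.56 (SE 0.50, 95% confidence interval -0.62 to 1.74, BH-adjusted p = 0.590 in edgeR). It was -0.098 without luteolin replicate 2 and -0.55 with luteolin replicate 3 alone. With offsets for GC content and gene length, Adora2a differed by 0.99 and Adora2b by 0.13 on the log2 scale.

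Of 16 tested genes that make adenosine by other routes, 2 were higher and 0 lower at the threshold of the study. That was near the share of all genes tested, of which 11.3% were higher and 1.52% lower. Bst1 was also higher at a BH-adjusted p under 0.05. The list's median was 0.37 on the log2 scale, and 0.00013 with luteolin replicate 3 alone. Bst1 (CD157), an ADP-ribosyl cyclase of myeloid cells, rose from 10.2 ± 2.12 to 33.5 ± 3.74 CPM (SD, n = 3 each), by 1.71 on the log2 scale (edgeR, BH-adjusted p = 0.0331). Acpp, a phosphatase that can make adenosine from AMP, rose by 6.28 on the log2 scale. It was at 0.172, 0.448 and 0.620 CPM in the controls and 3.79, 97.1 and 1.53 CPM in the luteolin group. Most of that level came from luteolin replicate 2, the library richest in keratinocyte transcripts. Without that library Acpp still passed the threshold of the study in edgeR. Cd38, which consumes NAD, and Enpp1, which cleaves ATP to AMP, had log2 differences of 0.59 and 0.78 and passed neither threshold in edgeR or DESeq2. Entpd4, an intracellular relative of Entpd1 and the most abundant of the list over all 6 libraries, differed by -0.27.

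Of 15 tested genes that clear or carry adenosine, 4 were higher and 0 lower at the threshold of the study. Of all genes tested, 11.3% were higher and 1.52% lower. Xdh was past a BH-adjusted p under 0.05, and the list's median was 0.10. With luteolin replicate 3 alone the list's median was 0.050. Xdh, xanthine dehydrogenase at the end of purine breakdown, was at 40.4, 34.4 and 45.2 CPM in the controls and 136, 243 and 148 CPM in the luteolin group, a log2 fold change of 2.13 (edgeR, BH-adjusted p = 0.0331). Slc28a2, a nucleoside importer, Ampd3, an AMP deaminase, and Dpp4 (CD26), a peptidase, rose by 1.59, 1.68 and 2.61 on the log2 scale. For Dpp4 the groups overlapped, at 0.744, 0.788 and 2.31 CPM in the controls and 8.47, 13.1 and 2.30 CPM in the luteolin group. Ada, adenosine deaminase, chosen after its values were seen, was at 15.0 ± 2.37 and 15.7 ± 3.36 CPM (SD, n = 3 each), a log2 difference of 0.072. Ahcy, which releases adenosine in the methylation cycle and was the most abundant of the list over all 6 libraries, though not within the luteolin group, differed by -0.31. Of 14 other purine receptors tested, P2ry1, an ADP receptor, was higher at the threshold of the study and 0 were lower. That compares with 11.3% and 1.52% of all genes tested, and the receptors' median was 0.62. P2ry1 was at 0.458, 0.247 and 0.930 CPM in the controls and 1.03, 7.97 and 0.892 CPM in the luteolin group, which overlapped. Without luteolin replicate 2, 0 of the receptors passed, and with luteolin replicate 3 alone their median was 0.58. P2ry6, a UDP receptor of macrophages, P2ry14, P2rx1 and P2rx4, the most abundant, had log2 differences of 0.78, 0.67, 1.34 and 0.16.

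Ido1 and Ido2, the neighbouring tryptophan dioxygenases on chromosome 8, differed from the controls in opposite directions, and Ido1 passed the threshold of the study. Ido1 lies at 24584136 to 24597009 and Ido2 at 24531892 to 24576333 in GENCODE M21 on GRCm38. Ido1 was read weakly, with 4, 7 and 29 counts in the controls and 73, 67 and 51 counts in the luteolin group. These are 0.0572, 0.108 and 0.450 CPM against 1.19, 0.802 and 0.798 CPM, with no overlap. Its log2 fold change was 2.04 (SE 0.81, 95% confidence interval 0.13 to 3.94; edgeR, BH-adjusted p = 0.219). The call rested on few counts. It was lost when any library other than control replicate 3 was left out, with log2 fold changes of 1.63 to 2.14, and without control replicate 3 the fold change was 3.10. It was also lost with luteolin replicate 3 alone, at 1.84. Multiples of 4 made up 44.8% of the deposited values between 1 and 40 (25% under an even spread), so 1 read may be worth more than 1 count, and the control values of 4 and 7 may stand for very few reads. RefSeq lists the noncoding gene Gm51565 across Ido1.

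Ido2, the less active of the pair, was at 7.27, 4.28 and 5.16 CPM in the controls and 2.97, 4.06 and 3.52 CPM in the luteolin group. All luteolin libraries were below all controls, and luteolin replicate 2 lay just under control replicate 2. The log2 difference of -0.66 (SE 0.35, 95% confidence interval -1.48 to 0.16) did not pass either threshold (BH-adjusted p = 0.343 in edgeR and 0.228 in DESeq2), and it was -0.64 with luteolin replicate 3 alone. Tdo2, which does the same step in liver, had 0, 4 and 6 counts in the controls and 0, 28 and 19 counts in the luteolin group. It was near 0 throughout.

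Further along the pathway, Kynu, which cleaves kynurenine and 3-hydroxykynurenine, was at 0.458, 0.803 and 1.29 CPM in the controls and 2.47, 3.004 and 2.17 CPM in the luteolin group. Every luteolin library was above every control, and the group means were 0.849 ± 0.417 and 2.55 ± 0.421 CPM (SD, n = 3 each). Its log2 fold change of 1.55 (SE 0.50, 95% confidence interval 0.36 to 2.74) passed the threshold of the study but not the adjusted one (edgeR, BH-adjusted p = 0.160; DESeq2, BH-adjusted p = 0.0369). The call was lost without control replicate 2, at 1.496, and the log2 fold change was 1.35 with luteolin replicate 3 alone. Kmo, which hydroxylates kynurenine on the outer mitochondrial membrane, was at 0.944, 1.92 and 3.21 CPM in the controls and 4.20, 7.53 and 1.91 CPM in the luteolin group. Its groups overlapped, with luteolin replicate 3 below control replicate 3. The log2 difference was 1.16 (SE 0.65, 95% confidence interval -0.37 to 2.69; edgeR, BH-adjusted p = 0.371), and it was -0.061 with luteolin replicate 3 alone. Kmo overlaps Fh1 on the opposite strand in GENCODE M21.

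Of 16 other tested enzymes of tryptophan and kynurenine, 4 were higher and 1 lower at the threshold of the study. Of all genes tested, 11.3% were higher and 1.52% lower. The list's median was 0.22 on the log2 scale, and Tph1 was past a BH-adjusted p under 0.05. Without luteolin replicate 2, Il4i1, Nmnat3 and Tph1 were higher and 1 gene lower at that threshold, and 0 passed the adjusted one. With luteolin replicate 3 alone the list's median was -0.068. Tph1, the tryptophan hydroxylase that starts serotonin synthesis, for example in mast cells, was at 0.115, 0.185 and 0.310 CPM in the controls and 3.85, 2.90 and 1.44 CPM in the luteolin group, a log2 fold change of 3.57 (edgeR, BH-adjusted p = 0.0487). Its control counts were 8, 12 and 20, and it passed the filter on low counts through the luteolin libraries. Il4i1, a secreted amino acid oxidase that acts on tryptophan, rose by 2.35, and Nmnat3, an NAD synthase, rose by 2.27. Acmsd, which diverts the pathway away from quinolinate and NAD, fell by 2.27. Its counts were 5, 20 and 10 in the luteolin group, and it passed the filter on low counts through the controls. Qprt, which uses quinolinate to make NAD, was the remaining gene that passed, at 2.002 on the log2 scale (SE 0.74), and was chosen after its values were seen. It had 16, 4 and 17 counts in the controls and 40, 115 and 29 in the luteolin group. Qprt too passed the filter on low counts through the luteolin libraries, and its call was lost without luteolin replicate 2. Got2, a transaminase and the most abundant of the list, differed by -0.083.

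Of 16 tested genes of tryptophan and kynurenine transport and sensing, 5 were higher and 0 lower at the threshold of the study. That compares with 11.3% and 1.52% of all genes tested, and the list's median was 0.59. With luteolin replicate 3 alone the list's median was 0.71. Slc7a8, a neutral amino acid exchanger, was at 14.5, 13.9 and 12.1 CPM in the controls and 29.5, 28.3 and 30.7 CPM in the luteolin group, a log2 fold change of 1.13 (edgeR, BH-adjusted p = 0.0419). Slc16a10, an aromatic amino acid transporter, and Slc36a4, which carries tryptophan, rose by 1.51 and 1.56. Slc7a5, the large neutral amino acid transporter that carries tryptophan and kynurenine and the most abundant of the list, differed by 0.52 and did not pass in edgeR or DESeq2. Cyp1b1, described next, also passed. Slc6a19, the last of the 5, was at 0.343, 0.0772 and 0.0620 CPM in the controls and 0.914, 5.66 and 0.172 CPM in the luteolin group, which overlapped, and was chosen after its values were seen. It passed the filter on low counts through the luteolin libraries, and its call was lost without luteolin replicate 2.

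Among 4 genes that the aryl hydrocarbon receptor switches on, Cyp1b1 passed the threshold of the study. It was at 2.93, 4.08 and 6.90 CPM in the controls and 15.1, 28.3 and 6.30 CPM in the luteolin group, a log2 fold change of 1.83. Luteolin replicate 3 lay within the controls. Ahrr, the repressor of the receptor, had a log2 difference of 2.59 and Tiparp one of -0.14, and neither passed in edgeR. DESeq2 placed Ahrr past the threshold of the study, at 2.68 on the log2 scale with a BH-adjusted p = 0.211. Cyp1a1 had 0, 0 and 0 counts in the controls and 36, 930 and 0 counts in the luteolin group, so it was read only in the libraries with the most keratinocyte transcripts. It was not tested in edgeR, and DESeq2 placed it past the threshold of the study (BH-adjusted p = 0.0594).

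**Figure D3:**
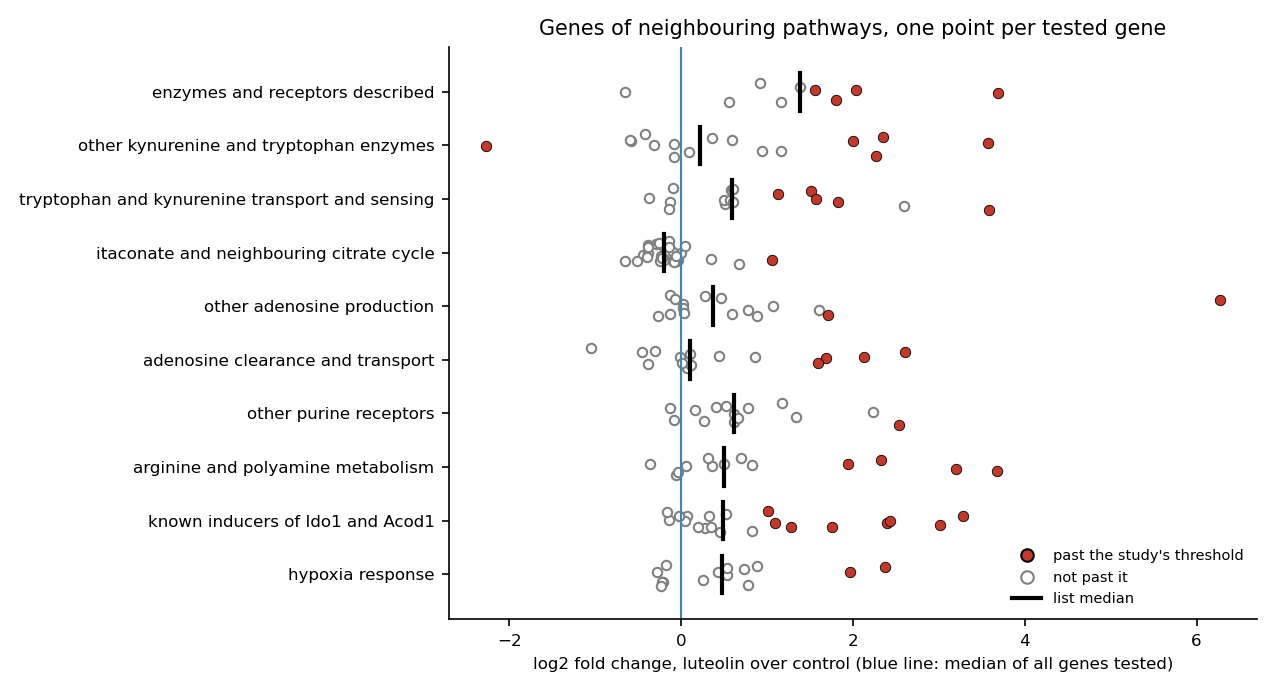
Log2 fold change of luteolin against control for each tested gene (points) in the lists around the 10 genes, with each list's median and the median of all genes tested as a blue line. The top row holds the 9 tested genes of the 10, with a median of 1.39. The medians of the lists around them run from -0.20 for the citrate cycle and itaconate list to 0.62 for other purine receptors.

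Arginine metabolism, which activated macrophages use beside itaconate, had 4 genes higher and 0 lower of 13 tested at the threshold of the study. That compares with 11.3% and 1.52% of all genes tested, and the list's median was 0.50. With luteolin replicate 3 alone the median was 0.76. Nos2, the inducible nitric oxide synthase, was at 5.27, 14.3 and 9.01 CPM in the controls and 150, 81.4 and 134 CPM in the luteolin group, a log2 fold change of 3.67 (edgeR, BH-adjusted p = 0.0331). Ass1, which remakes arginine from citrulline, rose from 4.97 ± 1.17 to 45.7 ± 11.5 CPM (SD, n = 3 each; edgeR, BH-adjusted p = 0.0292), and Slc7a2, an arginine importer, passed at 2.32 on the log2 scale (BH-adjusted p = 0.187 in edgeR). It was at 12.4, 52.1 and 34.9 CPM in the controls and 115, 41.1 and 342 CPM in the luteolin group, so the groups overlapped and luteolin replicate 3 was the highest.

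Of 20 tested inducers of Ido1 and Acod1 and their signalling genes, 8 were higher and 0 lower at the threshold of the study. That compares with 11.3% and 1.52% of all genes tested, and the list's median was 0.49. Without luteolin replicate 2, 5 of the 20 were higher, Ifng, Il1b and Tnf among them. With luteolin replicate 3 alone the median was 0.23. Il1b, an inflammatory cytokine, was at 14.5, 16.9 and 11.1 CPM in the controls and 165, 122 and 57.4 CPM in the luteolin group, a log2 fold change of 3.02 (edgeR, BH-adjusted p = 0.0331). The cytokines Tnf and Ifng rose by 2.40 and 3.28 on the log2 scale. Irf1, an interferon-induced transcription factor and the most abundant over all 6 libraries, differed by 0.27, and Ifnb1, chosen after its values were seen, had 0 counts in all libraries. Of 14 hypoxia genes tested, 2 were higher and 0 lower at the threshold of the study, near the 11.3% and 1.52% of all genes tested. The median of the 14 was 0.48, and 0.40 with luteolin replicate 3 alone. Adm (adrenomedullin) rose by 2.38 and Egln3, an oxygen sensor, by 1.97, both also past a BH-adjusted p under 0.05. Slc2a1, a glucose transporter, Vegfa, a vascular growth factor, and Pgk1, a glycolytic enzyme and the most abundant, had log2 differences of 0.73, 0.78 and -0.18 and did not pass in edgeR. DESeq2 gave Slc2a1 a BH-adjusted p = 0.00968 and Vegfa a BH-adjusted p = 0.0459, both under a 2-fold change. Without luteolin replicate 2, Vegfa passed the threshold of the study in edgeR.

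The order of the 10 genes by level per kb of exon differed between the groups. In the controls Entpd1 was highest, at 5.80 ± 1.17 CPM per kb, followed by Adora2b at 3.34 ± 0.542 CPM per kb (SD, n = 3 each), and neither overlapped the gene after it. Acod1 and Ido2 came next at 1.56 and 1.53 CPM per kb, with ranges that overlapped each other. Nt5e, Kmo, Adora2a, Kynu and Ido1 followed, at 0.755, 0.428, 0.411, 0.138 and 0.112 CPM per kb, and each overlapped its neighbours among these. In the luteolin group Acod1 was highest, at 20.2 ± 8.51 CPM per kb, above Entpd1 at 10.9 ± 0.280 CPM per kb (SD, n = 3 each), without overlap. Adora2b followed at 4.92 and Nt5e at 2.63 CPM per kb. From Adora2b through Nt5e, Adora2a, Ido2, Kmo and Ido1 to Kynu at 0.414 CPM per kb the neighbours overlapped. Tdo2 was lowest in both groups, at 0.0133 and 0.0543 CPM per kb.

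**Figure D4:**
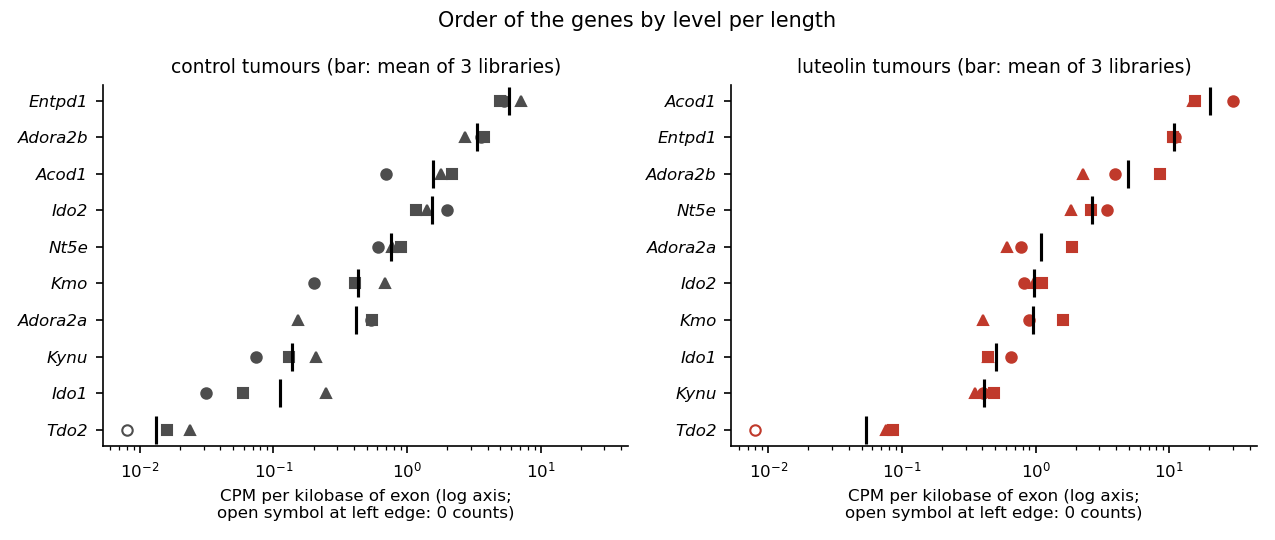
Level of each gene per kb of exon (CPM per kb, logarithmic axis) in the 3 control and 3 luteolin libraries, with open symbols at the edge for a library at 0 counts. Entpd1 is first and Acod1 the third by mean in the control group, and Acod1 is first and Entpd1 the next in the luteolin group.

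Markers of several cell types that carry these genes differed between the groups, and their part in the results was not tested. Beside the counts below, 11.3% of all genes tested were higher and 1.52% lower at the threshold of the study. The 10 macrophage markers summed to 1163, 1014 and 1077 CPM in the controls and 1680, 2395 and 1878 CPM in the luteolin group, a ratio of means of 1.83, with C1qa the most abundant. Of these markers 3 passed the threshold of the study, all higher, and 0 were at 0 in the controls. The 10 neutrophil markers summed to 19.0, 19.1 and 22.4 CPM in the controls and 169, 182 and 90.1 CPM in the luteolin group, a ratio of 7.29, with Csf3r the most abundant and 5 of 7 tested higher at the threshold of the study. Ngp and Camp were at 0 in the controls and were not tested in edgeR. In the luteolin group Ngp had 4, 0 and 544 counts and Camp 0, 7 and 100, so both came mostly from replicate 3. Ly6g, a defining marker of mouse neutrophils chosen after its values were seen, was near 0 in both groups, at 0.186, 0.556 and 0.186 CPM and 0, 0.108 and 0.516 CPM. The 6 regulatory T cell markers, of cells known to carry CD39 and CD73, summed to 9.82, 12.4 and 12.8 CPM in the controls and 30.7, 67.2 and 28.9 CPM in the luteolin group, a ratio of 3.62, with all 6 higher at the threshold of the study, none at 0 and Ikzf2 the most abundant. The ratio of summed levels was 4.35 for T cells, 4.21 for B cells, 5.89 for mast cells and 2.48 for fibroblasts (Cd4, Cd79b, Mcpt4 and Col3a1 the most abundant over all 6 libraries), with all luteolin libraries above the controls in each. The B cell sums were 6.63, 29.2 and 10.1 CPM in the luteolin group. Much of that ratio therefore came from luteolin replicate 2. The dendritic cell sum overlapped between the groups. Zbtb46, the most abundant over all 6 libraries, averaged 30.5 and 24.4 CPM, but 6 of the 10 markers (Flt3, Xcr1, Cd209a, Ccr7, Fscn1 and Siglech) were higher at the threshold of the study and 0 lower, with a median of 1.27 on the log2 scale. Xcr1, with 4, 20 and 36 counts in the controls, passed the filter on low counts through the luteolin libraries. The NK cell markers divided. Eomes, by far the most abundant, averaged 82.0 CPM in the controls and 45.2 CPM in the luteolin group, which put the sum at a ratio of 0.696 with all luteolin libraries below. The other 4 tested (Ncr1, Klrb1c, Klre1 and Klrk1) were higher at the threshold of the study, 3.20 to 5.66 times the control means, and Klra8 was at 0 in all libraries. Klre1, at 5.66, had 4, 5 and 11 counts in the controls and passed the filter on low counts through the luteolin libraries. Endothelial, adipocyte, skeletal muscle and liver sums overlapped, with 3 of 8, 0 of 6, 0 of 7 and 1 of 8 tested markers higher at that threshold and 0 lower. Without luteolin replicate 2, 1 endothelial marker (Vwf) was higher and 2 skeletal muscle markers were lower. The erythroid sum, led by Hbb-bs, had a ratio of 0.483 with all luteolin libraries below the controls, and 1 of 5 tested was lower (2 of 5 without luteolin replicate 2). The dendritic and NK cell markers named beside the most abundant and absent ones were chosen after their values were seen.

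Each gene was also set against the macrophage sum of the same library. Acod1 was 0.158%, 0.565% and 0.435% of that sum in the controls and 4.69%, 1.70% and 2.11% in the luteolin group, a ratio of means of 7.35 without overlap. Nt5e was 0.445%, 0.760% and 0.614% against 1.76%, 0.936% and 0.850%, a ratio of 1.95 without overlap. Both genes therefore differed by more than the macrophage sum did. Entpd1 was 2.53%, 2.74% and 3.70% against 3.70%, 2.48% and 3.29%, a ratio of 1.06 with overlapping groups. Ido2 was 0.625%, 0.422% and 0.480% against 0.177%, 0.169% and 0.187%, a ratio of 0.350 with all luteolin libraries below. The groups overlapped for Ido1, Kynu, Kmo, Adora2a, Adora2b and Tdo2, with ratios of 2.56, 1.63, 1.17, 1.38, 0.767 and 2.02. These ratios scale by 1 marker list and do not say which cells hold the RNA.

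**Figure D5:**
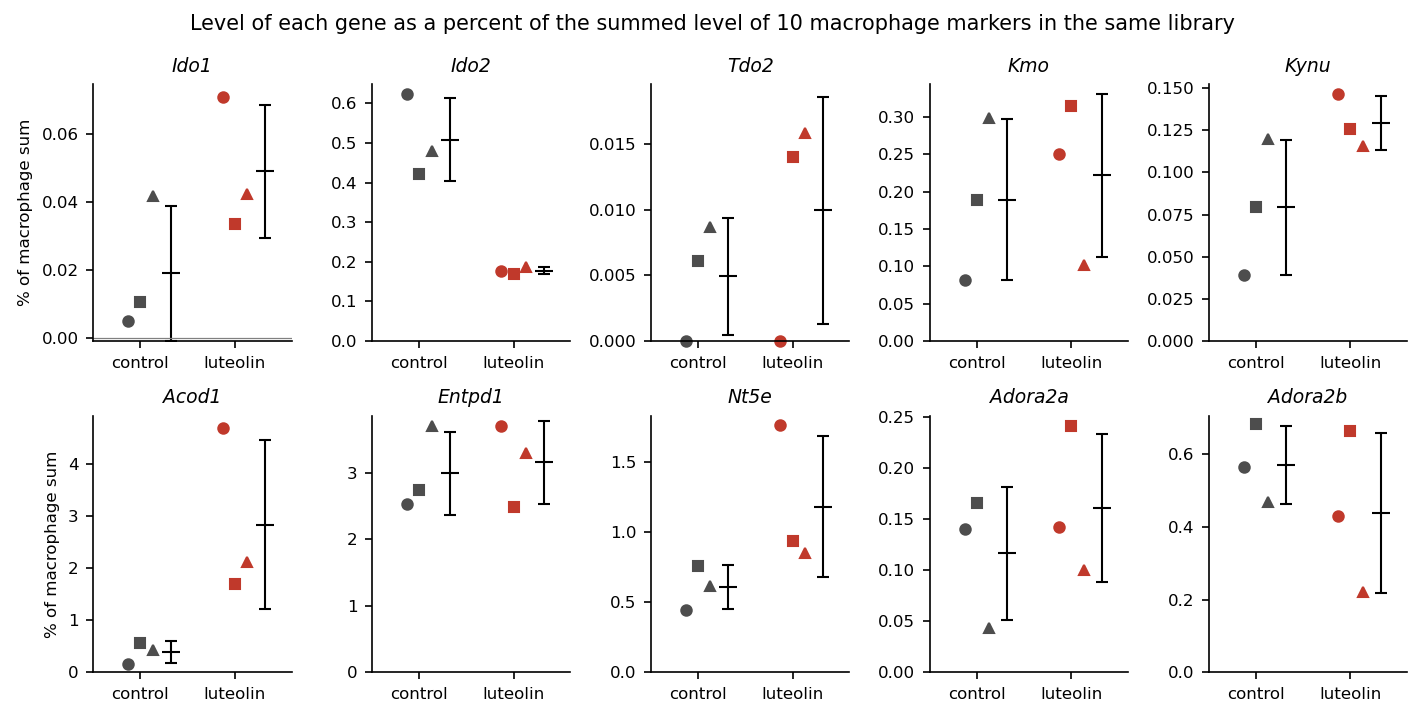
Level of each gene as a percent of the summed level of 10 macrophage markers in the same library (vertical axes, linear, 1 scale per gene), with replicates 1 to 3 as circle, square and triangle and the mean with its SD (n = 3). Acod1 and Nt5e lie higher in all luteolin libraries, Ido2 lies lower in all of them, and Entpd1 overlaps.

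The 3 tested genes whose pattern over the 6 libraries was most like that of each of the 9 tested genes were found by the root mean square difference of centred log2 CPM, as a description without a test. The measure includes the difference between the groups, so genes with a like difference come out close. For Acod1 they were Tnn, Nos2 and Pdpn, at 0.217, 0.313 and 0.331. Tnn encodes an extracellular matrix protein and Pdpn a surface glycoprotein of lymphatic and stromal cells. For Nt5e they were Prdm1, a transcription factor of plasma cells and effector T cells, Olfr920 and Mob3b, at 0.117, 0.117 and 0.121. Entpd1 was closest to Nectin3, an adhesion protein, at 0.083, and then to Zfp28 and Ttc12. Ido1 was closest to Casp1, the inflammasome protease, Il7r and Ms4a7, at 0.246, 0.291 and 0.319. Kynu was closest to Rtp4, an interferon-induced gene, at 0.102, and then to Gcnt1 and Osmr. Ido2 was closest to Pdk2, a pyruvate dehydrogenase kinase, at 0.058, and then to Naaladl1 and Unkl. Kmo was closest to Lifr, Ccnjl and Ednrb, at 0.181 to 0.249. Adora2a was closest to Socs1, a brake on cytokine signalling, Irf8 and P2rx1, at 0.197 to 0.276, and Adora2b to Prss12, C130074G19Rik and Ndufs5, at 0.114 to 0.142. Among the 9 genes themselves, Nt5e and Kynu were the nearest pair, at 0.410, and the gene nearest to Acod1 was Ido1, at 0.923.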

How the data were processed

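The authors deposited 1 table holding a whole number for every symbol in each of the 6 libraries (3 per group), treated here as estimated counts. The submitters' processing notes name bcl2fastq 2.0, HISAT2, StringTie and DESeq2 and the builds mm39 and rn6, without roles. The methods and the labels name different RNA and library kits.

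Counts were fitted in R 4.3.3 with edgeR 4.0.16 (TMM, filterByExpr, two-sided quasi-likelihood F test, prior count 2) over all 14963 genes that passed the filter, and p values were BH-adjusted over these. CPM use the TMM-scaled totals. Alternatives were DESeq2 1.42.0, voom of limma 3.58.1, other scalings and filters, a replicate block and each library left out. Values divided by 4, thinned libraries, GC and length offsets, and luteolin replicate 3 alone were added after the data had been seen. Gene lengths and positions came from GENCODE M21 (GRCm38), which holds 21053 of the 21720 symbols, and promoters from RefSeq on GRCm38.p6. The fit was tested on simulated data.

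The 10 genes and all lists were chosen with earlier results of these data known. The text names, by rule, the 4 genes of smallest p and the most abundant gene (mean over all 6 libraries) in each list, the most abundant and absent markers, 4 aryl hydrocarbon receptor targets and the 3 genes most like each of the 9 tested. Genes outside the rule are marked where they are named. Some genes that the rule selects are not reported here.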

Additional observations from a re-analysis of the deposited data

How the results depend on the processing

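Acod1, Nt5e and Entpd1 kept a positive log2 fold change and an unadjusted p under 0.05 under all 18 alternatives, at 3.29 to 4.01, 1.31 to 1.96 and 0.76 to 1.09. Their adjusted p was under 0.05 in 12, 9 and 3 of them, and ran from 2.56e-12 to 0.207, from 2.5e-06 to 0.284 and from 0.00127 to 0.397. Ido1 and Kynu kept their direction, and Ido1 lost its call in 7 of 17 and Kynu in 2 of 18. Adora2a passed the threshold of the study in DESeq2 (1.39) and with the replicate block (1.42). Kmo reversed to -0.061 and Adora2b to -0.55 with luteolin replicate 3 alone, and leaving out 1 library moved Adora2b between -0.098 (without luteolin replicate 2) and 0.84.

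At an adjusted p under 0.05, all genes higher and lower numbered 1543 and 415 by DESeq2, 95 and 14 by voom, 345 and 47 with at least 10 counts in every library, 326 and 45 after division by 4, 555 and 308 with GC and length offsets, and 4 and 1 with luteolin replicate 3 alone. Of the 10 genes, DESeq2 placed 4 higher, voom 1, no filter on low counts 1 and luteolin replicate 3 alone 0. At the study's threshold the offsets gave 465 genes lower and moved the share of calls that were higher from 88.1% to 74.8% and the median of all genes to -0.23, and luteolin replicate 3 alone gave 769 genes higher, a higher share of 71.0% and 2 of the 10 genes.

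Leaving out 1 library gave 1135 to 2103 genes higher and 140 to 305 lower at the study's threshold, with 2 to 5 of the 10 genes higher. At an adjusted p it gave 0 to 276 higher and 0 to 36 lower, with 0 to 2 of the 10 genes. The counts were 0 without control replicate 1, 2 or 3 or luteolin replicate 1, where edgeR's quasi-likelihood test still gave 1907 to 2462 genes at an unadjusted p under 0.05. With the replicate number as a block, 34 genes were higher and 1 lower at an adjusted p, and 0 of the 10 genes, with 2297 genes at an unadjusted p under 0.05. Same-numbered libraries did not deviate together over all genes tested (correlations of -0.19, -0.092 and 0.064). Trends across a whole library, such as that with GC content, enter these correlations. They therefore cannot decide whether the numbers pair the samples.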
